A study of Mus musculus with 12 samples.

Results

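The genes described here are those for the proteins of the cytosolic ribosome, chosen by symbol alone: names of the form Rpl or Rps followed by a number, together with Rplp0, Rplp1, Rplp2 and Rpsa, and without the S6 kinase genes that share the Rps6 stem. Of 22609 genes in the count files, 84 were members, 51 of them named for the large (60S) subunit and 33 for the small (40S) subunit. The libraries came from sensory neurons of the trigeminal ganglion (TG), the ganglion that supplies the face and mouth, which had been traced from the tongue with the fluorescent lectin WGA-AF488 and sorted by flow cytometry. All mice were adult Balb/c athymic nude mice, which lack a thymus and most T cells. Male mice formed the groups MN (normal) and MT (tumor-bearing) and female mice the groups FN and FT, with 3 libraries in each of the 4 groups, written MN1 to FT3. Tumor-bearing mice received 350000 HSC3 cells, a human oral squamous cell carcinoma line, in the tongue. The labels state that normal mice received no cells, whereas the study's methods name normal oral keratinocytes for them. All mice received 0.5% WGA dye, as the labels give it, in the tongue on day 13, and ganglia were taken on day 15. A normal sample pooled 4 ganglia of 2 mice and a tumor sample pooled 4 ganglia from the injected side of 4 mice.

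A ribosome is built from ribosomal RNA and a single copy of most of its proteins, so cells make these proteins in near equal amounts. Their mRNAs are short, abundant and as a class begin with a run of pyrimidines, the TOP motif, through which mTOR signaling and the protein LARP1 control their translation. The parent genes have given rise to many processed pseudogenes, which are intronless genomic copies of the mRNA. A short read from such an mRNA can therefore match several places in the genome, and the counts used here left such reads out.

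Each library held between 4592891 (FT2) and 8922011 (MN2) reads counted on genes, and the lowest of the other 11 held 7112207. Reads on the members numbered 17098 to 53523 per library. In FN2, FT3 and FT2, 56%, 52.6% and 68.4% of all reads had several placements, against 43% to 45.5% in the other 9 libraries, so results are given with and without these libraries. Sensory neuron markers were present in every library, all 18 with reads in all 12, and summed to between 23262 and 34270 CPM (reads per 1000000 reads counted on genes). Markers of satellite glia summed to 3482 to 4932 CPM in the 6 male libraries and 6546 to 17890 CPM in the 6 female ones. Macrophage markers summed to 27.4 to 39.9 CPM in MN, 21.9 to 268 in MT, 178 to 415 in FN and 251 to 539 in FT. Sorted bulk RNA cannot tell fewer cells of a type from less RNA per cell. Replicates are samples pooled from separate ganglia, and intervals or limits from counts cover counting error only.

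How much of the coding sequence was without an exact copy elsewhere in the genome differed widely between members. Untranslated sequence, on which reads can also fall, was not examined. For each gene, every 50-base window of the coding sequence was compared with the mm9 genome (NCBIM37), since the reads were 50 bases long. Over 20232 genes with a coding transcript in GENCODE M1, the median gene had an exact copy elsewhere for none of its windows (100% without a copy, mean 92.5%). Over the 83 members in that annotation, the median was 10.4% and the mean 22.3%. For 28 members (33.7%) no coding window at all was without a copy, against 226 genes (1.12%) of all. The 8 windows below are each the one within an exon that lay nearest the middle of the coding sequence. They contrast single windows that match 1 place in mm9 exactly with windows that match several, and other windows of the same genes can differ. The first 3, of Rps3, Rpl4 and Rps27l, had no exact copy elsewhere.
Rps3: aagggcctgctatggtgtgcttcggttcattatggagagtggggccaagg
Rpl4: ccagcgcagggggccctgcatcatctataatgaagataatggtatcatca
Rps27l: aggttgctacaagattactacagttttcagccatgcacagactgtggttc
The other 5 did have copies, and come from Rps27, Rpl26, Rps23, Rps12 and Rpl21.
Rps27: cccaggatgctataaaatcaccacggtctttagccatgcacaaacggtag
Rpl26: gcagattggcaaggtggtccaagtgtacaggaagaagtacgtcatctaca
Rps23: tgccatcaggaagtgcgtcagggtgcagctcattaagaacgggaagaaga
Rps12: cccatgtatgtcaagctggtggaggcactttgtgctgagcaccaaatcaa
Rpl21: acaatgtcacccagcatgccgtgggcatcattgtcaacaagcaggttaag
In mm9 these windows lie at chr7:106628527-106628576, - strand (Rps3), chr9:64024807-64024856, + strand (Rpl4), chr9:66795392-66795441, + strand (Rps27l), chr3:90016922-90016971, - strand (Rps27), chr11:68716707-68716756, + strand (Rpl26), chr13:91063958-91064007, + strand (Rps23), chr10:23505718-23505767, - strand (Rps12) and chr5:147646632-147646681, + strand (Rpl21), all exonic and coding. The Rps27 window had 2 copies elsewhere, both inside other genes. The Rpl26 window and the Rps23 window had 3 copies each, and all 3 of Rps23 lay in annotated pseudogenes. The Rps12 window had 8 copies, 5 of them in annotated pseudogenes. The Rpl21 window had 21 copies, of which 11 lay in annotated pseudogenes and 5 outside any annotated gene. Counts of members with such copies are uncertain for this reason, and so are those of members that overlap other genes, since the strand setting of the counting was not given in the sources used here.

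**Figure D1:**
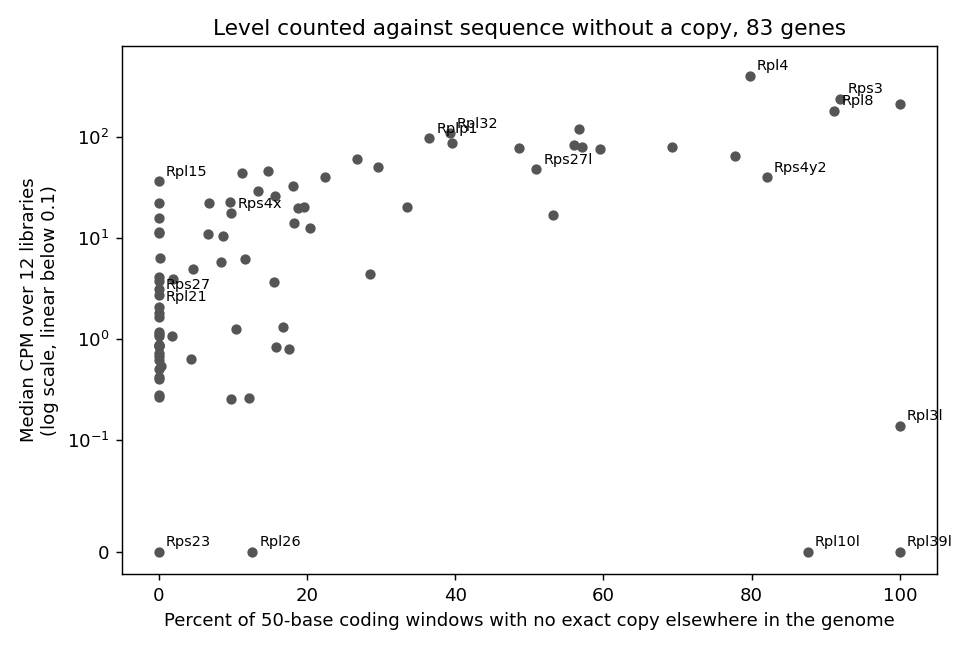
Each point is 1 of 83 ribosomal protein genes, placed by the percent of its 50-base coding windows with no exact copy elsewhere in mm9 (x axis) and its median CPM over 12 libraries (y axis, log scale, linear below 0.1). Rpl4, Rps3 and Rpl8, with 79.8% to 91.9% of windows without a copy, are among the genes with the highest levels, and the paralogs Rpl3l, Rpl39l and Rpl10l lie at or near 0 although most of their windows have no copy.

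The members' counted levels followed this share. Spearman's rho between the percent of windows without a copy and the median CPM was 0.56 across 83 members, a description across genes that share the same 12 libraries. The 28 members with no unique window had a median level of 1.09 CPM, the 39 with up to 50% had 12.6 CPM, and the 16 with 50% or more had 78 CPM. Of all 84 members, 6 had a median above 100 CPM, 35 lay between 10 and 100, 20 between 1 and 10, and 23 below 1.

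Per kilobase of merged exon, the scale on which genes may be compared, the 4 highest members were Rpl4, Rpl8, Rpl32 and Rplp1. Rpl4, a large-subunit protein at the exit tunnel, had a median of 286 CPM per kilobase, followed by Rpl8 at 211, Rpl32 at 210 and the stalk protein Rplp1 at 198. Rpl4 (chr9:64021194-64026369, mm9) had 404, 372 and 362 CPM in MN, 387, 403 and 409 in MT, 456, 650.0 and 421 in FN and 437, 218 and 697 in FT. Its level was highest in FT3 and FN2 and lowest in FT2, and the other 9 libraries lay between 362 and 456.

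The 5 lowest members per kilobase were Rpl10l, Rpl26, Rpl39l, Rps23 and Rpl24. Rpl26, at chr11:68715085-68720491, and Rpl10l, at chr12:67384368-67385388, had no read in any of the 12 libraries. A count of 0 allows up to 3 reads, which is 0.0333 CPM over the 12 libraries summed, and this limit covers counting error only. Rpl26, a large-subunit protein that every cell uses, had 12.6% of windows without a copy, whereas Rpl10l, a retrogene known from testis, had 87.6%. Rps23, which lies at the decoding center, had at most 1 read per library, Rpl39l had at most 3 and Rpl24 at most 5. For Rps23 and Rpl24 no coding window was without a copy, and why Rpl26 had no read was not tested.

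Paralogs of ribosomal proteins gave a clear order only in part, since each pair differed in how much coding sequence was without a copy. Rps27l (51% of windows without a copy), known as a p53-induced relative of Rps27, had a median of 58.9 CPM per kilobase (range 36.5 to 249), against 7.90 (range 4.65 to 32.2) for Rps27 (0%), and was higher in all 12 libraries. Rps4y2, an autosomal relative of X-linked Rps4x whose coding sequence lies in 1 exon, had 42.4 CPM per kilobase (range 27 to 107) against 10.8 (range 4.14 to 37.4) for Rps4x, again higher in all 12 libraries, with 82% and 9.69% of windows without a copy. Rpl22l1 and Rpl22, which can replace each other in the 60S subunit, went against that order of windows on this scale. Rpl22l1 (18.1% of windows without a copy) had 66.3 CPM per kilobase and Rpl22 (69.2%) had 27.6, with Rpl22l1 higher in all 12 libraries. In CPM, however, Rpl22 had the higher median, 80.4 against 32.4. Merged exons spanned 2911 bases for Rpl22 and 489 for Rpl22l1, while the annotated Rpl22 transcript used for lengths below had 474. The order of this pair therefore depends on the length taken. Rpl7l1 had 25 CPM per kilobase and Rpl7 had 14.9, with Rpl7l1 higher in 11 libraries. Rpl3l, the muscle form of Rpl3, had 13 reads over the 12 libraries although 100% of its windows had no copy, and Rpl3 had 55 reads with 4.3%. Rpl39l had 6 reads over the 12 libraries against 5858 for Rpl39, and Rpl10l had 0 against 116 for Rpl10.

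Taken as one share, the members received between 0.214% and 0.732% of the reads counted on genes. The share was 0.264%, 0.214% and 0.224% in MN, 0.266%, 0.238% and 0.253% in MT, 0.315%, 0.698% and 0.261% in FN, and 0.307%, 0.732% and 0.474% in FT. The 3 high libraries were FN2, FT2 and FT3, 1 of them from normal and 2 from tumor-bearing mice, and the other 9 lay between 0.214% and 0.315%. These were also the 3 libraries with the most reads of several placements. Group means were 0.234% ± 0.026 in MN, 0.252% ± 0.014 in MT, 0.425% ± 0.238 in FN and 0.504% ± 0.214 in FT (SD, n = 3).

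**Figure D2:**
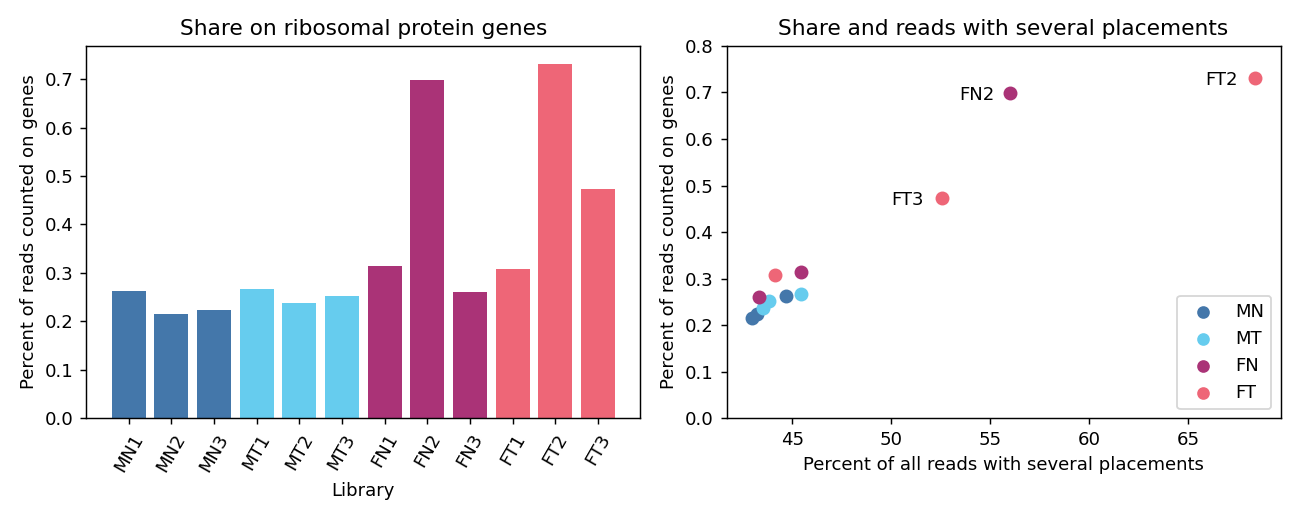
Left, the percent of reads counted on genes that fell on the 84 ribosomal protein genes in each of the 12 libraries. Right, the same percent against the percent of all reads with several placements. FN2, FT3 and FT2 stand apart on both axes, and the other 9 libraries lie between 0.214% and 0.315% of gene reads.

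A total of 65 members passed the filter on low counts and were tested. The other 19, none with a median above 0.87 CPM, included Rpl3, Rpl3l, Rpl9, Rpl10l, Rpl23a, Rpl24, Rpl26, Rpl28, Rpl29, Rpl35a, Rpl36a, Rpl39l, Rps12, Rps13, Rps18, Rps23, Rps28 and Rps29. A member of low level may have passed because of the group in which it was high, so the counts below describe the tested members, not all 84. For comparisons of females with males the sex chromosomes were not counted, which left 62 members.

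Nearly all members stood higher in FN2 and FT3, whereas in FT2 some stood far higher and others lower. Satellite glia markers were also highest in FN2 and FT3, at 16450 and 17890 CPM, against 7879 in FT2 and 6546 to 8137 in FN1, FN3 and FT1, and their part in these ratios was not tested. Relative to the MN mean, the median of the 65 tested members was 3.15-fold in FN2 (51 of 65 more than 2-fold higher), 2.04-fold in FT3 (36 more than 2-fold higher) and 3.03-fold in FT2 (43 more than 2-fold higher). In the other 9 libraries it lay between 0.897 and 1.35. The highest member in FT2 was Rpl38 at 32.5-fold, and 8 members were below 0.5 of the MN mean, against 1 in FN2 and 0 in FT3. For comparison, the median over all genes tested was 0.705 in FN2, 0.866 in FT3 and 0.674 in FT2. The shares of all genes past the 2-fold and 0.5 cutoffs were not computed, so the counts of members past them describe the members only. In FT2 other genes of 2000 to under 4000 bases had a median of 0.503, so values near 0.5 were common there.

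**Figure D3:**
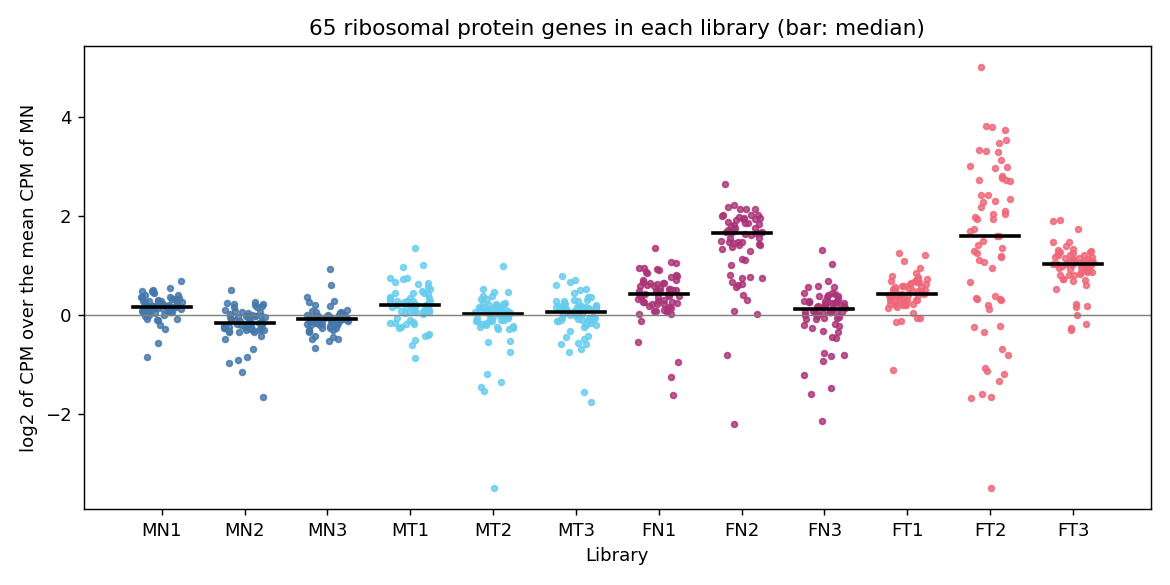
The 65 tested ribosomal protein genes in each library, as log2 of CPM over the mean CPM of the 3 MN libraries. Each point is a gene and each bar the median of the library. Values below -3.5, which include genes with no read, are drawn at -3.5. The medians of FN2, FT2 and FT3 stand above the rest, and the spread is widest in FT2.

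In FT2 short members stood highest, and 8 of the 20 tested members with transcripts of 1000 bases or more stood below MN. The 13 tested members with transcripts under 600 bases had a median of 5.40-fold in FT2, those of 600 to under 1000 bases 3.26-fold and those of 1000 bases or more 1.25-fold. Rpl38, which mice need for the normal patterning of the axial skeleton, went from 0.844, 0.897 and 0.574 CPM in MN to 25 in FT2. That was 115 reads in FT2, while no other library had more than 13. Rps21 went from 19.3, 8.41 and 13 CPM in MN to 189 in FT2, Rpl35 from 5.62, 3.36 and 3.44 to 59, Rps15 from 82.7, 64.6 and 70 to 580.0 and Rplp1 from 99.8, 77.9 and 87.4 to 693. Some long members were low in the same library. Rpl6 had 22.2, 18.3 and 19.4 CPM in MN and 6.31 in FT2, and Rpl7 had 35.4, 32.1 and 30.4 and 13.1. Rpl15, a core protein of the 60S subunit whose transcript of 1922 bases is long, had 37.4, 36.9 and 34.1 CPM in MN, 20.7 in FN2 and 11.3 in FT2, so it was low in both of these libraries. Rpsa, whose transcript of 1861 bases is long, was high, and went from 6.05, 5.38 and 5.74 CPM in MN to 66.8 in FT2. The 5 tested members of 2000 to under 4000 bases were not low as a group, with a median of 3.84-fold, and lengths are those of 1 annotated transcript a gene. Spearman's rho between the ratio to MN and transcript length was -0.51 in FT2, -0.23 in FN2 and -0.18 in FT3 over 64 members. Over all 13332 genes tested with a length it was -0.02, -0.47 and -0.57 in the same libraries, so the order of the libraries was the reverse of that among the members. The value near 0 in FT2 does not mean that other genes showed no length trend there. Their median ratio to MN fell from 4.60 under 600 bases to 0.503 at 2000 to under 4000 bases. It was higher again, at 0.823, for 4000 bases or more, and a rank correlation does not capture a fall followed by a rise. Members in this paragraph other than those of the stalk, Rpsa, Rps21, Rpl7 and Rpl38 were named after their values were seen.

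**Figure D4:**
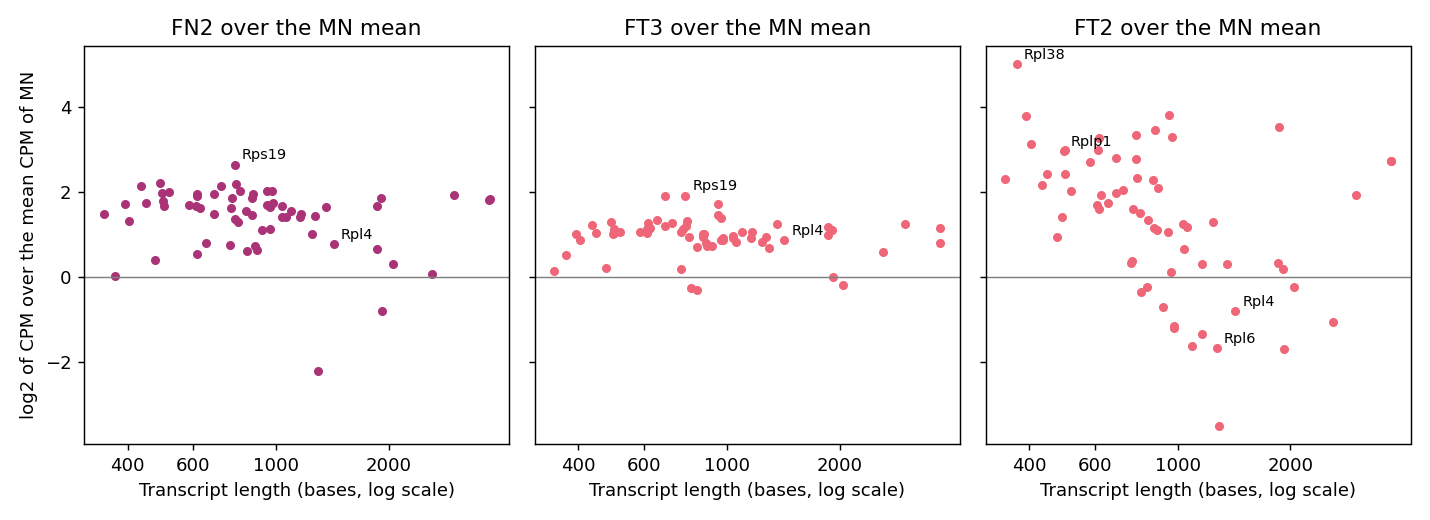
Log2 of CPM over the MN mean against transcript length (log scale) for 64 tested ribosomal protein genes in FN2, FT3 and FT2. Values below -3.5 are drawn at -3.5. In FT3 nearly all points lie in one band near the library median of 2.04-fold, while in FT2 short genes lie high and 8 of 20 genes of 1000 bases or more lie below 0.

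Other genes of like length moved in the same direction in FN2, FT3 and FT2 where transcripts were under 1000 bases. From 1000 to under 2000 bases this held in FN2 and FT3 but not in FT2. From 2000 to under 4000 bases it held in none of them. In FN2, 168 other genes with transcripts under 600 bases had a median ratio to MN of 2.74 and 647 of 600 to under 1000 bases had 2.65, against 3.29 and 3.17 for members of those lengths. In FT3 the other genes had 1.98 and 1.95, against 2.06 and 2.10 for the members. In FT2 the other genes had 4.60 and 1.72, against 5.40 and 3.26. From 1000 to under 2000 bases they had 1.69, 1.68 and 0.667 in FN2, FT3 and FT2, against 2.70, 1.93 and 1.24 for 15 members. Genes of 2000 to under 4000 bases that were no members had 0.476, 0.702 and 0.503 in FN2, FT3 and FT2, where the 5 members of that length had 3.54, 1.75 and 3.84. Of these 5, Rps15a, Rps20 and Rpl18 had coding sequences of only 393, 360 and 567 bases, and stood at 6.65, 6.64 and 3.84 in FT2. Rpl7l1 and Rpl5 stood at 0.48 and 0.854 in FT2 and at 1.065 and 1.244 in FN2. Whether the annotated lengths hold in these cells was not tested. All of these but Rpl7l1 were named after their values were seen. In FN1, FN3 and FT1 the other genes under 600 bases lay at 1.24, 0.993 and 1.18. Values from fits with offsets for transcript length stand beside the comparisons.

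The TOP motif was looked for at the first transcribed bases, since it is the feature this class of mRNAs is known for. In RefSeq promoter sequences (GRCm38.p6), 63 members matched, and the motif was taken as a C at the annotated start followed by at least 4 pyrimidines, on the transcribed strand. It was present for 12 of 63 members (19%), 673 of 27025 genes (2.49%) and 0 of 69 mitochondrial ribosomal protein genes. Annotated starts can miss the true start, so absence says only that these letters do not stand at that base. Among tested members the median ratio of FT2 to MN was 8.22 for 10 with the motif (range 0.313 to 32.5). It was 2.39 for 39 without it (range 0.316 to 13.3). The same members had medians of 3.23 with the motif and 3.12 without it in FN2. In FT3 the order was reversed, with 1.8 and 2.05. The gap in FT2 was therefore not shared by FN2 and FT3, and no test was made of these differences. The starts shown were chosen for their range in FT2. Rpl38 and Rpl35 have the motif and stood far above MN there, Rpl15 has the longest tract and stood below it, and of the starts without the motif Rpsa stood far above MN and Rpl4 below it. Each runs from 10 bases before to 20 bases after the start, with the motif in capitals.
Rpl38: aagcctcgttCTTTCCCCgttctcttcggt
Rpl35: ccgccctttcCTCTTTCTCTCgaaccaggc
Rpl15: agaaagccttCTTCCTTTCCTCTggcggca
Rpsa: ttatttaaggacgtcatttccggccgcccg
Rpl4: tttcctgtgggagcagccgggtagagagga
In GRCm38.p6 they lie at chr11:114668570-114668599, + strand (Rpl38), chr2:39005112-39005141, - strand (Rpl35), chr14:18270967-18270996, - strand (Rpl15), chr9:120127756-120127785, + strand (Rpsa) and chr9:64173377-64173406, + strand (Rpl4). Rpl38, Rpl35 and Rpl15 have tracts of 8, 11 and 13 pyrimidines, and the listed starts of Rpsa and Rpl4 have none.

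The comparison of MT with MN asked whether tongue tumors changed these genes in male neurons, and none of the members passed the test. With edgeR's quasi-likelihood test and Benjamini-Hochberg adjustment over 13835 genes, 0 of 65 members and 0% of all genes had an adjusted p under 0.05. At an unadjusted p under 0.05 no member was higher or lower, where 0.347% of all genes were higher and 0.0795% lower. Without FN2 and FT2 no member was higher either (1.64% of all genes). The median log2 fold change of the members was 0.14 (48 of 65 above 0, range -0.84 to 0.62), against 0.01 over all genes tested. Every MT library lay above every MN library for 7 members (10.8%, with 5.8% of all genes tested so placed), and the reverse held for 0 members (7.32% of all genes).

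The 7 members were Rpl7, Rpl14, Rpl15, Rpl31, Rpl39, Rplp0 and Rps4y2, of which Rpl14, Rpl15 and Rpl31 were named after their values were seen. Rpl14 had 35, 33.8 and 35.7 CPM in MN and 42.6, 39.2 and 50 in MT, and Rps4y2 had 25.4, 36.1 and 31.1 and 37.9, 44.5 and 37.4. Rplp0, the scaffold of the ribosomal stalk, had 79.9, 74.5 and 70.3 and 83.4, 81.3 and 81.9. These were small shifts, of 0.35 ± 0.54, 0.39 ± 0.47 and 0.15 ± 0.44 on the log2 scale (estimate ± SE, adjusted p 1 by edgeR in each case). Rps19, whose loss causes Diamond-Blackfan anemia and which the study's process lists name for this comparison, had 9.42, 15.4 and 7.80 CPM in MN and 18.1, 14.2 and 17.3 in MT, so that MN2 lay within the MT range. Its log2 fold change was 0.62 ± 0.63 (adjusted p 1 by edgeR). The study selected genes with DESeq by p-value, fold change and RPKM, so its list and this adjusted p differ in test and threshold. In the fit of 9 libraries without FN2, FT2 and FT3, which share the estimate of spread, 4 of 67 members were higher at an unadjusted p under 0.05 (3.99% of all genes), namely Rpl7, Rpl14, Rps19 and Rps4y2, and Rps19 had 0.61 ± 0.24 (adjusted p 0.652). The macrophage marker sum of MT3 was 268 CPM against 21.9 and 27.8 in MT1 and MT2, and MT3 was the highest MT library for Rpl7 and Rpl14 but not for Rps19 or Rps4y2. The markers' part in these values was not tested.

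**Figure D5:**
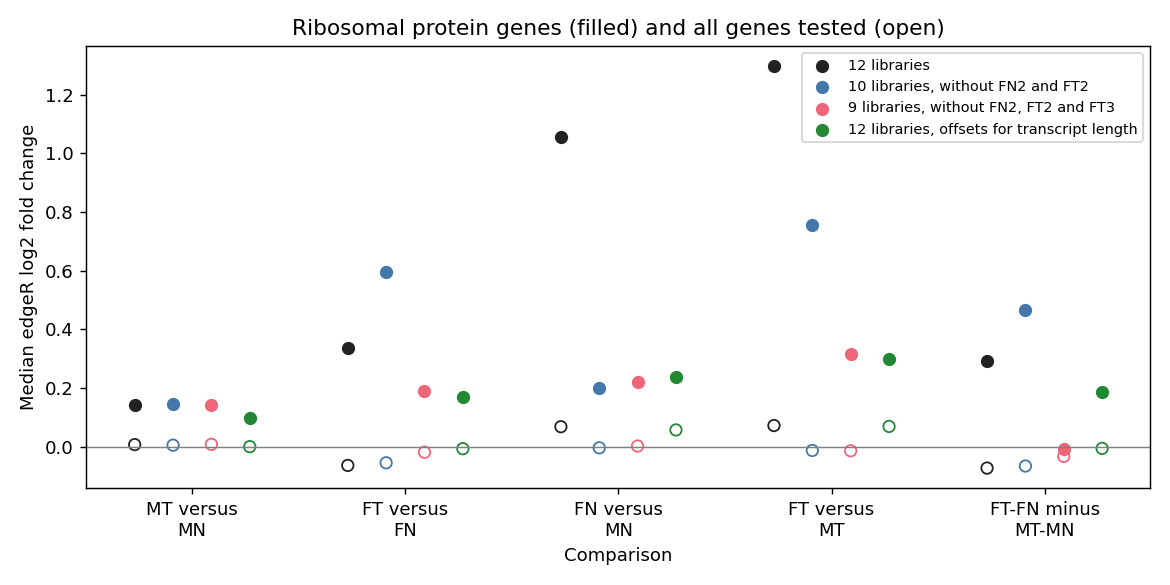
Median edgeR log2 fold change of the tested ribosomal protein genes (filled) and of all genes tested (open) in the 5 comparisons, with 12, 10 and 9 libraries and with offsets for transcript length. In MT versus MN the medians lie between 0.10 and 0.14 under all 4, while in FN versus MN and FT versus MT they drop from 1.06 and 1.30 with 12 libraries to 0.22 and 0.31 with 9.

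The comparison of FT with FN addressed the same question in females, and again 0 of 65 members had an adjusted p under 0.05 (0% of all genes). At an unadjusted p under 0.05, 2 members were higher (3.17% of all genes), Rpl38 and Rps21, and 0 lower (0.643%). The median log2 fold change was 0.33 (48 of 65 above 0), against -0.06 over all genes. Every FT library lay above every FN library for 1 member, Rpl38 (1.22% of all genes), and below for 0 (1.26%).

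Both named members rested on FT2. Rpl38 had 0.251, 0.783 and 0.685 CPM in FN and 1.78, 25 and 1.12 in FT, a log2 fold change of 4.23 ± 1.24 (adjusted p 0.994 by edgeR) that was 1.70 ± 1.00 in 10 libraries without FN2 and FT2. Rps21, a small protein of the 40S subunit, had 18.5, 44.5 and 14.2 CPM in FN and 20.3, 189 and 27.6 in FT, with 1.77 ± 0.80 (adjusted p 0.994) and 0.66 ± 0.37 in 10 libraries. Rps7, which binds MDM2 and is named in the study's process lists for this comparison, had 5.15, 9.65 and 3.70 CPM in FN and 6.17, 4.79 and 11.6 in FT, and these ranges overlapped. Its log2 fold change was 0.26 ± 0.53 in 12 libraries (adjusted p 0.994 by edgeR) and 1.12 ± 0.47 in 10 (adjusted p 0.334), where FT3 and FT1 were both above FN1 and FN3. As for Rps19, the study's list rests on another test and threshold.

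Which of the outlying libraries entered the fit decided the direction of the median. It was 0.33 with all 12 libraries, 1.16 without FN2, -0.26 without FT2, 0.59 without both, and 0.19 without FN2, FT2 and FT3, where FT is FT1 alone. In 10 libraries 18 of 64 members were higher at an unadjusted p under 0.05 (9.03% of all genes), and in 9 libraries 3 of 67 (1.75%). Offsets for transcript length left a median of 0.17, and a covariate for reads with several placements gave -0.20.

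Between normal females and males the counted levels of most members were higher in FN, by an amount that rested on FN2. No member had an adjusted p under 0.05 (0% of all genes by edgeR), while 17 of 62 were higher at an unadjusted p under 0.05 (27.4%, against 5.21% of all genes) and 0 lower (0.359%). The median log2 fold change was 1.06 (58 of 62 above 0), against 0.07 over all genes. Every FN library lay above every MN library for 18 members (29%, against 9.66% of all genes) and below for 0 (10.2%). Without FN2 and FT2 the median was 0.20 and 4 of 61 members were higher at an unadjusted p under 0.05 (4.82% of all genes) and 1 lower (1.26%). Without FT3 too it was 0.22, with 11 of 64 higher (8.66%) and 1 lower (6.57%). The lower member was Rpl19 in both, named after its values were seen. Limma-voom with quality weights, which gives outlying libraries less weight, called 3 of 62 members between FN and MN at an adjusted p under 0.05 (4.8%, against 5.99% of all genes), with a median of 0.29.

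The 3 largest positive log2 fold changes among these 17 members were those of Rps19, Rpl22l1 and Rpl13. Rps19, at chr7:25669390-25674825 in mm9, had 9.42, 15.4 and 7.80 CPM in MN and 27.7, 68.4 and 22.2 in FN, so that FN1 and FN3 also lay above all of MN. Its log2 fold change was 2.06 ± 0.65 with 12 libraries (adjusted p 0.809 by edgeR), 1.13 ± 0.33 with 10 (adjusted p 0.509) and 1.14 ± 0.26 with 9 (adjusted p 0.0839), and 1.12 ± 0.38 with offsets for length. Only 19.5% of its coding windows had no copy elsewhere. Rpl22l1 had 31.4, 17.8 and 18.1 CPM in MN and 43, 105 and 28.1 in FN, where FN3 lay below MN1, and its log2 fold change went from 1.60 ± 0.54 to 0.61 ± 0.34 without FN2 and FT2. Rpl13 had 11.2, 12.2 and 12.3 and 18.6, 54.5 and 15.8, with 1.53 ± 0.62 in 12 libraries and 0.47 ± 0.31 in 10. Rpl14, among the 11 in 9 libraries and named after its values were seen, had 52.4, 154 and 52 CPM in FN, all above MN, with 0.53 ± 0.12 (adjusted p 0.0839). Satellite glia and macrophage markers were also higher in all FN than in all MN libraries (8090 to 16450 against 4119 to 4932 CPM, and 178 to 415 against 27.4 to 39.9 CPM), and their part in these differences was not tested.

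The 4 X-linked members were left out of the counts between the sexes. Rps4x had 16.6, 15.9 and 12 CPM in MN, 15.2, 18.8 and 16.5 in MT, 26, 60.9 and 19 in FN and 20, 6.75 and 28.4 in FT. FN2 was highest and FT2 lowest, and its log2 fold change FN versus MN was 1.45 ± 0.53 with 12 libraries and 0.55 ± 0.21 with 9. Rpl39 had 36.6, 36.5 and 31.9 CPM in MN, 55.7, 37.8 and 38.4 in MT, 49.3, 138 and 34.7 in FN and 63.2, 282 and 71.8 in FT, with FT2 and FN2 highest, and a log2 fold change of 1.30 ± 0.68. Rpl10, a late-joining protein of the 60S subunit, had at most 3.39 CPM and a log2 fold change of 1.42 ± 0.69, and Rpl36a, at most 1.57 CPM, was not tested.

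In tumor-bearing mice the counted levels of most members were higher in FT than in MT, by an amount that rested on FT2 and FT3. No member had an adjusted p under 0.05 with edgeR (0% of all genes), while 34 of 62 members were higher at an unadjusted p under 0.05 (54.8%, against 9.96% of all genes) and 0 lower (2.09%). DESeq2 gave 11 of 61 members an adjusted p under 0.05 (18%, against 1.86% of all genes). The median log2 fold change by edgeR was 1.30 (59 of 62 above 0), against 0.07 over all genes. Every FT library lay above every MT library for 33 members (53.2%, against 8.03% of all genes), and below for 1, Rpl15 (9.61%). Rpl15 had 41.8, 37.6 and 40.9 CPM in MT and 34.6, 11.3 and 36.3 in FT.

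With FT2 and FN2 left out, 35 of 61 members were still higher at an unadjusted p under 0.05 (13.5% of all genes) and the median was 0.76. With FT3 also left out, so that FT was FT1 alone and was assumed to vary like the other groups, 7 of 64 were higher (3.62% of all genes) and the median was 0.31. These 7 were Rpl6, Rpl8, Rpl23, Rpl41, Rplp1, Rps15 and Rps26, of which all but Rpl8 and Rplp1 were named after their values were seen. Leaving out FT1, the only FT library like those of the other groups, gave 16 of 67 members an adjusted p under 0.05 (23.9%, against 5.55% of all genes). Offsets for transcript length gave a median of 0.30, with 10 of 62 members higher at an unadjusted p under 0.05 (11.2% of all genes) and 1 lower (3.08%), and the covariate for reads with several placements gave 0.21 with 0 higher (2.38% of all genes).

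The 3 largest positive log2 fold changes among the 34 members were those of Rpl38, Rps21 and Rplp2. Rpl38 had 1.51, 0 and 0.864 CPM in MT and 1.78, 25 and 1.12 in FT, with 3.85 ± 1.20 in 12 libraries (adjusted p 0.321 by edgeR) and 0.85 ± 0.83 in 10, and FT3 lay within the MT range. Rps21 had 15.6, 11.5 and 11.7 and 20.3, 189 and 27.6, with 2.95 ± 0.84 (adjusted p 0.321) and 0.92 ± 0.34 in 10 libraries. Rplp2 is described with the stalk.

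The stalk, which recruits the GTPases of translation, is made of Rplp0 with pairs of Rplp1 and Rplp2. Rplp2 had 26.7, 16.4 and 18.9 CPM in MN, 17.5, 17.2 and 14.1 in MT, 21.9, 65.5 and 14.9 in FN and 24.1, 206 and 38.2 in FT. Rplp1 had 99.8, 77.9 and 87.4 CPM in MN, 92.4, 81.1 and 86.1 in MT, 115, 348 and 95.9 in FN and 119, 693 and 179 in FT. In both, FT2 was far above every other library and FN2 came next. Rplp0 had 79.9, 74.5 and 70.3 CPM in MN, 83.4, 81.3 and 81.9 in MT, 106, 236 and 91.8 in FN and 92.3, 93.2 and 179 in FT, where FN2 and FT3 were highest and FT2 lay with FT1. The log2 fold changes FT versus MT were 2.79 ± 0.83 for Rplp2, 2.25 ± 0.72 for Rplp1 and 0.72 ± 0.45 for Rplp0 with 12 libraries, and 0.98 ± 0.30, 0.83 ± 0.24 and 0.78 ± 0.27 with 10 (adjusted p 0.191, 0.184 and 0.194 by edgeR). Rplp0 transcripts are the longest of the 3 at 1358 bases, against 964 for Rplp2 and 495 for Rplp1. Rpsa, a protein of the 40S subunit that also serves as the laminin receptor, had 6.05, 5.38 and 5.74 CPM in MN, 6.04, 6.25 and 5.68 in MT, 7.67, 18.3 and 6.85 in FN and 6.45, 66.8 and 11.4 in FT. FT2 was the outlier, with FN2 and FT3 next, and the log2 fold change FT versus MT fell from 2.57 ± 0.80 with 12 libraries to 0.62 ± 0.31 with 10 and 0.04 ± 0.31 with 9.

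Large-subunit and small-subunit members moved alike in sign. The median log2 fold change FT versus MT was 1.16 over 35 large-subunit and 1.35 over 23 small-subunit autosomal members tested, and FN versus MN gave 0.91 and 1.13. In FT2 they stood at 2.46-fold and 4.26-fold of MN, and no test was made of that difference. The 4 tested paralogs (Rpl7l1, Rpl22l1, Rps27l and Rps4y2) had medians of 1.00 and 1.23 in the same comparisons.

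Whether the tumor effect differed between the sexes was tested as an interaction. No member had an adjusted p under 0.05 (0% of all genes), and at an unadjusted p under 0.05 1 of 65 was higher, Rpl38 (0.99% of all genes), and 0 lower (0.477%). The median was 0.29 with 12 libraries, against -0.07 over all genes, and -0.01 with 9. In 10 libraries 6 of 64 members were higher at an unadjusted p under 0.05 (3.03% of all genes) and in 9 libraries 1 of 67 was higher (2%), Rpl7a, and 1 lower (3.1%), Rps15a, both named after their values were seen. Rps19 had 0.06 ± 0.89 (adjusted p 1 by edgeR).

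Lists of genes that act with the ribosome, chosen with earlier results of these data known, gave a range of medians. Rpl36al, a ribosomal protein gene that the naming rule does not match, had 21.4, 19.3 and 17.2 CPM in MT and 27, 95.6 and 44.3 in FT. Elongation factors and other TOP mRNAs (16 tested) had a median log2 fold change FT versus MT of 0.40, with 3 higher and 0 lower at an unadjusted p under 0.05. Among them Eef1a1, which brings aminoacyl-tRNA to the ribosome, had 435, 460.3 and 523 CPM in MT and 557, 167 and 678 in FT, so FT2 was its lowest library. Eef2, the translocase, had 684, 789 and 751 CPM in MT and 872, 561 and 372 in FT. Initiation factors (57 tested) had a median of 0.28, with 4 higher and 1 lower, and ribosome biogenesis factors (23 tested) 0.40, with 2 higher. Of all genes tested in this comparison, 9.96% were higher and 2.09% lower at that threshold. Mitochondrial ribosomal proteins (75 tested), whose transcripts had a median of 1142 bases, had 0.70 with 20 higher and 0 lower. Nuclear-encoded oxidative phosphorylation genes (75 tested), with a median of 861 bases, had 1.56 with 44 higher and 0 lower. The members' median of 1.30 lay between those of the mitochondrial ribosomal and oxidative phosphorylation lists. Their transcripts, with a median of 780 bases over the 83 annotated members, were shorter than those of both lists. The part of length in this order was not tested. In MT versus MN no gene of any of these lists had an unadjusted p under 0.05 (0.347% of all genes higher and 0.0795% lower). With 9 libraries the FT versus MT medians were 0.15, -0.06, 0.10, 0.06 and 0.09 for these 5 lists in the order given.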

How the data were processed

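RNA of sorted, tongue-traced TG neurons was made into SMART-seq2 libraries and sequenced as 50-base single reads. Per the labels and the study's methods, the authors aligned reads with TopHat2 to mm9 (base calling with CASAVA 1.8.2, SAMtools for sorting or indexing) and counted them per gene with HTSeq, which leaves out reads with several placements. The versions of TopHat2, SAMtools and HTSeq, the annotation and the strand setting are not given in the sources used here. The deposited values are raw read counts per gene. Rows that name no gene held 76.3% to 88.8% of all reads per library (reads with several placements, no gene, or several genes) and were left out. CPM was computed over gene rows.

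The main test was edgeR 4.0.16 (R 4.3.3) quasi-likelihood with TMM on all 12 libraries and 4 group means, after a filter with a minimum count of 10 and a minimum total of 15, with adjustment over all genes tested. Sex-chromosome genes were not used to compare females with males. Alternatives were DESeq2 1.42.0, limma 3.58.1 voom with quality weights, other scalings, no filter, 2 groups only, a replicate block, a covariate, fewer libraries, and, chosen after seeing the data, offsets for transcript length. The fit was tested on simulated data that held no outlying libraries like FN2, FT2 and FT3, so that test does not cover their effect. Coding windows of 50 bases came from the lowest-numbered GENCODE M1 transcript. Deviations of same-numbered libraries from their group means correlated at -0.35 to 0.57. They did not deviate together throughout, so the numbers were not taken as pairs.

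The members and lists were chosen with earlier results of these data known. Genes were named by a fixed rule: Rps19 and Rps7, which the study's process lists name; in each pairwise comparison the 3 largest rises and falls at an unadjusted p under 0.05; paralogs with their partners; stalk proteins and Rpsa; X-linked members; and the 5 highest and 5 lowest per kilobase. A few members and 1 list are not reported here. No proteins are printed.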

Additional observations from a re-analysis of the deposited data

How the results depend on the processing

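Without FN2 and FT2, the members higher at an unadjusted p under 0.05 numbered 18 in FT versus FN, 4 in FN versus MN and 6 in the interaction, and the medians were 0.20 in FN versus MN and 0.76 in FT versus MT. Without FT3 as well they numbered 4 in MT versus MN, 11 in FN versus MN and 7 in FT versus MT, with medians of 0.22 in FN versus MN and 0.31 in FT versus MT. Leaving out each library in turn, the counts ranged from 1 to 37 in FT versus FN (37 without FN2, with 8.87% of all genes higher), 0 to 35 in FN versus MN (0 without FN2, 2.18% of genes, and 35 without FT2, 8.1%), 1 to 43 in FT versus MT (1 without FT2, 3.82%, and 43 without FT1, 15.6%) and 0 to 9 in the interaction (9 without FN2, 3.33%), and the medians from -0.26 to 1.16, 0.23 to 1.34, 0.75 to 1.61 and -0.31 to 0.98. Where the count was 1 in FT versus FN, 0.62% to 2.75% of genes were higher. Where it was 0 in the interaction, 0.449% to 0.749% were. The members with an adjusted p under 0.05 in FT versus MT ranged from 0 to 16 (16 without FT1). DESeq2 called 11 members in FT versus MT at an adjusted p under 0.05 (1.86% of genes), and at an unadjusted p under 0.05 it had 6 higher in FT versus FN (4.22% of genes) and 0 in the interaction (1.49%). Voom with quality weights called 3 in FN versus MN, and had 3 higher (5.18% of genes) and 1 lower (6.14%) in MT versus MN, and 4 (1.26%), 19 (4.24%) and 5 (1.63%) higher in FT versus FN, FT versus MT and the interaction at an unadjusted p under 0.05, with medians of 0.29 in FN versus MN and 0.79 in FT versus MT. With no filter there were 8 in FT versus FN (3.43%) and 3 in the interaction (1.44%). With only the groups compared there were 4 in MT versus MN (3.7%) and 0 in FT versus FN (1.16%), and the interaction has no such fit. The covariate for reads with several placements gave 0 higher in FT versus FN (0.766%), 7 in FN versus MN (4.38%), 0 in FT versus MT (2.38%) and 0 in the interaction (0.535%), with 1 lower in FT versus FN (1.41%) and in the interaction (1.06%), and medians of 0.40 in FN versus MN, 0.21 in FT versus MT and -0.23 in the interaction. Offsets for transcript length gave 4 (4.3%), 7 (5.16%) and 10 (11.2%) higher and 1 lower each (1.07%, 1.12% and 3.08%) in FT versus FN, FN versus MN and FT versus MT, with medians of 0.24 in FN versus MN and 0.30 in FT versus MT. The cause of these changes was not tested. The replicate block gave 10 in FN versus MN (3.38%) and 0 in the interaction (0.557%), 0 members with an adjusted p under 0.05 in each comparison, and correlations of same-numbered libraries from -0.35 to 0.57. As a share of all reads in the files, the members took 0.053%, 0.057%, 0.083% and 0.080% in MN, MT, FN and FT, and without the 100 highest other genes 0.287% in MN and 0.311% in MT. The other 285 alternative values of these counts, medians and shares stayed within the limits of 1.5 times or 1 SD. Library size limits the members of low level, and FT2 was the shallowest library.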

Other observations

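Rows for ribosomal protein pseudogenes were nearly empty. Rplp2-ps1 had no read in any library, Rpl34-ps1 had at most 0.377 CPM (MT1) and Rps19-ps3 at most 0.754 CPM (FN1), and none passed the filter on low counts. Regulators of ribosomal protein synthesis were measured as well. The 15 genes of the mTOR pathway list had a median log2 fold change of -0.03 in MT versus MN, 0.04 in FT versus FN, -0.07 in FN versus MN and -0.11 in FT versus MT, with 1 gene higher at an unadjusted p under 0.05 in each of the last 3 by edgeR and 0 in the first. Of all genes, 3.17%, 5.21% and 9.96% were higher in those 3 and 0.347% in the first. Mtor itself had 65.4, 58.2 and 55.9 CPM in MN, 51.4, 49 and 55.3 in MT, 46.5, 34.1 and 49.9 in FN and 56.9, 34.4 and 45.3 in FT. All MT and all FN libraries were below every MN library for Mtor, as for 7.32% and 10.2% of all genes tested in those comparisons. In the Myc network (6 of 7 tested), Myc had 32.8, 41 and 29.8 CPM in MN and 61.3, 46.7 and 50.4 in MT. Every MT library thus lay above every MN library, as for 5.8% of all genes tested. Its log2 fold change by edgeR was 0.63 and did not pass the test. The study's process lists name Myc among genes higher in MT than in MN, and as for Rps19 they rest on another test and threshold. In FT, Myc had 46.4, 3.70 and 43.9 CPM, with FT2 by far the lowest. The list's medians were -0.06, 0.11, 0.02 and 0.38 in the same 4 comparisons.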
